A study of Mus musculus with 4 samples.

Results

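The genes described here encode the machinery by which a vesicle fuses with its target membrane: synaptotagmins, SNARE proteins and the proteins that hold vesicles ready for release. They were chosen by symbol, as every row of the count table named as a synaptotagmin (Syt), syntaxin (Stx), VAMP, SNAP, complexin (Cplx), synapsin (Syn1 to Syn3), RIM (Rims), RIM-binding protein 2 (Rimbp2), syntaxin-binding protein (Stxbp) or SV2 gene. The rule found 63 genes of the 25965 rows in the table. By name alone it also took Snap91, which encodes the clathrin adaptor AP180 and is no SNARE. Symbols with another ending, such as Stxbp3a or Stxbp5l, are not members.

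RNA was sequenced from female mouse neural stem cells cultured from E14.5 embryos of a mixed C57BL/6, 129 and Castaneus (Cast) background. Control cells carried Smchd1 del/fl, with 1 deleted and 1 conditional allele of the chromatin protein gene Smchd1, and were not transduced. Deleted cells were Smchd1 del/del, made from the same lines with a retrovirus that carries Cre recombinase and puromycin resistance. Puromycin was added 24 h after transduction and cells were taken at 7 days. In both groups the maternal X was of 129 origin with an Xist deltaA allele and the paternal X was Cast. There were 4 libraries, a control and a deleted one from each of 2 lines, called A and B here. Deletion cannot be told apart from transduction and selection, since all deleted cells and no control cells had them.

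In neurons, a synaptic vesicle is brought to the plasma membrane and its VAMP pairs with a syntaxin and a SNAP-25 type protein on the membrane to form the SNARE complex, which drives fusion. Synaptotagmins 1, 2 and 9 sense the incoming calcium, complexins clamp and promote the assembled complex, Munc18 proteins chaperone syntaxins, and RIM and RIM-binding proteins tether calcium channels to the release site. Outside neurons the same families serve secretion, and other syntaxins and VAMPs carry traffic between the endoplasmic reticulum, Golgi, endosomes and lysosomes in every cell.

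The library totals were 29873400 to 34018500 counts, of which the members made 0.274% to 0.319%. Smchd1 on chromosome 17 had 2779 control and 785 deleted counts in line A, and 3461 and 852 in line B, a log2 fold change of −1.96 (SE 0.07, edgeR adjusted p = 0.0194) in the direction of the labels. The count is of the whole gene, not of the deleted part alone. Markers of neural stem cells summed to 8520 control and 7800 deleted CPM (counts scaled to a common library size with TMM factors) in line A, and 7650 and 6530 in line B. Of these 8 genes edgeR called 0, and Nes was at −0.48 (edgeR adjusted p = 0.0536, DESeq2 adjusted p = 0.000367). Unadjusted edgeR p was under 0.05 for 2 higher and 2 lower ones, beside 17.2% higher and 13.6% lower over all genes tested. Neuron markers summed to 79.5 and 90.3 CPM in controls A and B and to 104 and 97.8 in deleted A and B, with 8 genes measured and 1 of them, Elavl3, called higher. Astrocyte markers summed to 1610 control and 3210 deleted CPM in line A, and 1780 and 3320 in line B, and 6 of 8 were called higher. Oligodendrocyte markers summed to 78.9 control and 97 deleted CPM in line A, and 89.8 and 102 in line B. Of 4 tested, 0 were called and 4 were higher in both lines, beside 38.1% of all genes tested. The 5 microglial markers summed to 10.4 to 11.2 CPM, with Cx3cr1 at 0 counts in every library. Csf1r was at 251 to 304 counts and P2ry12 at 48 to 96. The 5 endothelial and mesenchymal markers summed to 2.05 to 2.66 CPM, with Cdh5 at 0 in every library, Col1a1 at 37 to 54 counts and Pecam1 at 8 to 32. The part of these markers in the results below was not tested. In bulk RNA, more cells of a type and more RNA per cell cannot be told apart.

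Control cells, which carry 1 deleted Smchd1 allele, expressed many of the members. Levels were compared between genes as CPM per kilobase of exon (RPKM), with exon lengths from the GENCODE M21 annotation of the same build. In both control libraries 39 of the 63 members were above 1 RPKM and 14 were above 10. The share of all genes above these levels is not given here. The highest was Syt11, a synaptotagmin that does not bind calcium, with 91.0 RPKM (line A) and 115 (line B). Next came the endosomal syntaxin gene Stx12 at 73.5 and 79.2, and Vamp3, the VAMP of recycling endosomes, at 65.8 and 81.6. Stx12 and Vamp3 overlapped, while Syt11 was above both in either line. Below them complexin 2 (Cplx2), at 44.7 and 32.9 RPKM, overlapped Stx4a, at 37.7 and 36.7.

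SNAREs of the neuronal complex were unevenly represented in controls. Vamp2, the vesicle SNARE of neurons, had a mean of 15.7 RPKM. Snap25, its partner on the plasma membrane, was at 0.149 and 0.371 RPKM in lines A and B, whereas the broadly expressed Snap23 was at 17.4 and 17.7. Syt1, the main calcium sensor of fast release, had 20.4 RPKM (line A) and 8.63 (line B). Syt2, the other fast sensor of that kind, had between 3 and 7 counts in each library. Syt8 and Cplx4 had 0 counts in all 4 libraries, which allows up to 3 counts, or 0.0880 to 0.101 CPM, for counting error only. Cplx3 had 1 count in deleted A and 0 elsewhere.

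Between deleted and control cells, 5 members rose and 2 fell. Rimbp2, complexin 1 (Cplx1), Syn3, Sv2a and Syn2 were higher in deleted cells, and the synaptotagmins Syt13 and Syt1 were lower. The rises of Syn3 and Syn2 are uncertain, since each shares exon bases with another gene that rose. Genes were tested over the whole table with edgeR's quasi-likelihood test and line as a block, and a gene is called here when its adjusted p is under 0.05. Fold changes are on the log2 scale, deleted minus control. Of the 63 members 57 passed the filter on low counts and were tested, and 6 (Syt2, Syt5, Syt8, Sv2b, Cplx3 and Cplx4, none above 20 counts in any library) were not. The 7 calls are 12.3% of the members tested, beside 5.6% of all 14860 genes tested, of which 3.71% were higher and 1.89% lower. A filter that looks at both groups together (a mean of at least 10 counts) tested 58 members and called 5 higher and 2 lower. With that filter 928 of 14788 genes were called in all.

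These calls rest on the term for line. Without it edgeR called 0 members and 0 of all 14860 genes tested. Its adjusted p was between 0.341 (Sv2a) and 0.651 (Syn2) for the 7, and 0.341 for Smchd1. Unadjusted p in that fit was under 0.05 for 9 higher and 4 lower members, and the share of all genes is not given here. DESeq2 with the same block called 13 members, 10 higher and 3 lower with all 7 included, beside 8.01% of all genes (5.17% higher, 2.83% lower). A further 16 members had edgeR adjusted p between 0.05 and 0.1, 11 with positive and 5 with negative fold changes. The share of all genes in that range is not given here. With 2 libraries per group, no p-value here covers variation beyond these cultures.

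**Figure D1:**
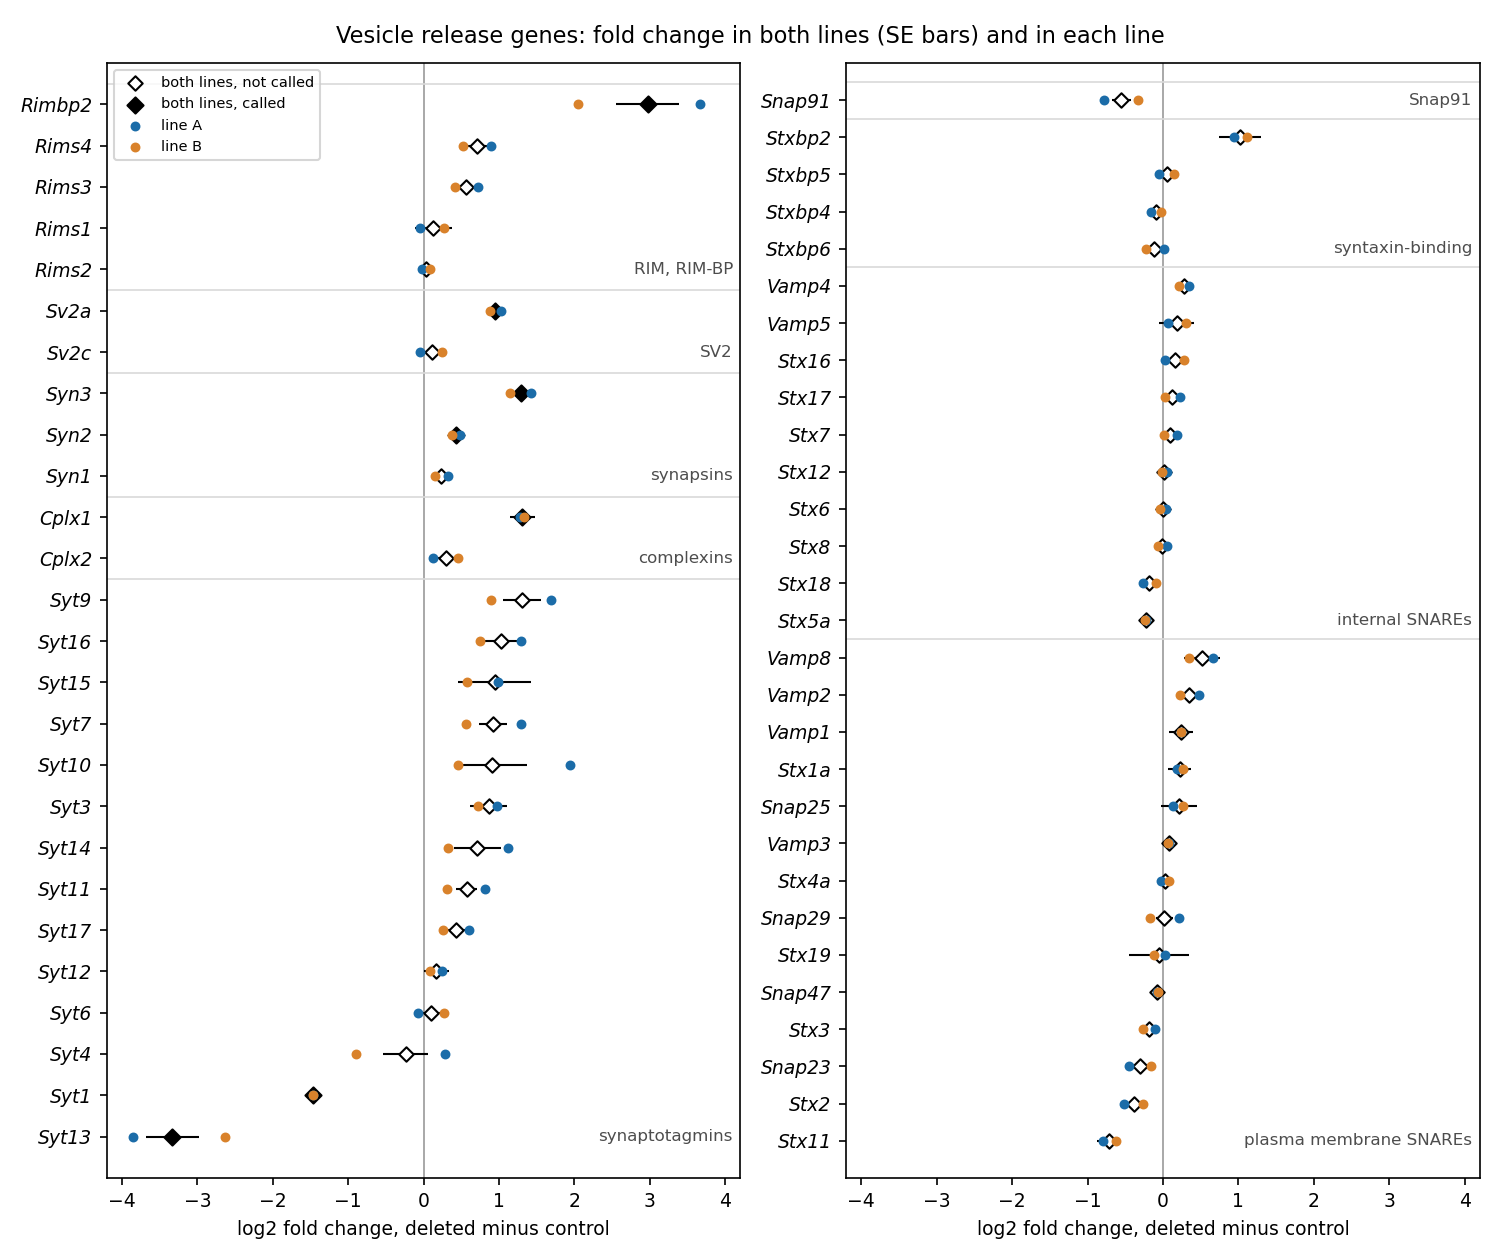
Log2 fold change, deleted minus control, for 55 of the 57 members tested, grouped by role. Diamonds give the fit over both lines with its standard error (filled where the gene was called), and blue and orange points give line A and line B alone. Rimbp2 lies farthest to the right at 2.97 and Syt13 farthest to the left at −3.33, while the SNARE genes plotted all lie within 0.71 of 0.

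Across the members, the groups did not overlap in CPM for 20 members higher in deleted cells (35.1% of those tested, beside 22.9% of all genes) and for 9 lower ones (15.8%, beside 22.8%). In 32 members (56.1%) the deleted library was higher in both lines and in 12 (21.1%) lower in both, while over all genes the shares were 38.1% and 36.5%. For the remaining 13 the lines disagreed in sign. The median log2 fold change of the members tested was 0.16, against 0.01 over all genes. Some members may have passed the filter only through the group where they were higher.

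**Figure D2:**
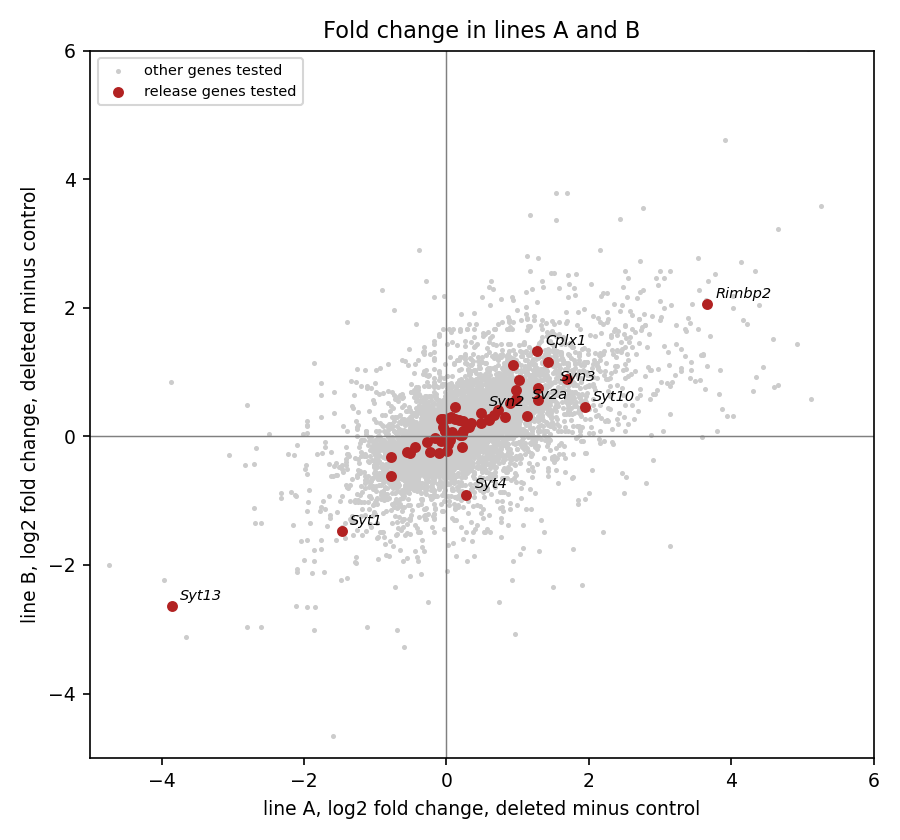
Log2 fold change in line A (horizontal axis) and line B (vertical axis), each 1 deleted library against 1 control library. Red points are the 57 members tested and grey points all other genes tested, with 3 genes outside the axes. The 7 called members lie at the upper right or lower left, and Syt4 at the lower right, at 0.28 in line A and −0.90 in line B.

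The stretches just before the start sites of the called genes are shown because the changes are in the amount of their RNA. RefSeq promoter windows (GRCm38.p6, from 250 bases before to 50 after a start site) were found for 5 of the 7 called members and 48 of all 63. Syn3 and Syt13 had none. The letters run 5′ to 3′ on the gene's strand and end before the start of the first annotated exon. Capitals mark a GC box, the GGGCGG motif bound by Sp1-type factors, on either strand.
Cplx1 (chr5:108550028-108550177, minus strand): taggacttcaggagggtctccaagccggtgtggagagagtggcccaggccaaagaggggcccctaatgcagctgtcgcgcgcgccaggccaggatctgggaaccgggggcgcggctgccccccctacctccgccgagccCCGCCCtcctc
Rimbp2 (chr5:128953487-128953636, minus strand): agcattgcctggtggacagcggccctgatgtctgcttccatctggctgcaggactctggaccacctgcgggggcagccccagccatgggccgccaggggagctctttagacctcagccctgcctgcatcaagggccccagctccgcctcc
Sv2a (chr3:96181001-96181150, plus strand): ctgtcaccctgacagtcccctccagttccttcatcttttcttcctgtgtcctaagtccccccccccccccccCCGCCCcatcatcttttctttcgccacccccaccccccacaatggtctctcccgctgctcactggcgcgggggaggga
Syn2 (chr6:115134752-115134901, plus strand): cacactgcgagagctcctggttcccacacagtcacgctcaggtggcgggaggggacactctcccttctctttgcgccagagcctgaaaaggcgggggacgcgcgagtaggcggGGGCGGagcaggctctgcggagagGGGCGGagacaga
Syt1 (chr10:109010983-109011132, minus strand): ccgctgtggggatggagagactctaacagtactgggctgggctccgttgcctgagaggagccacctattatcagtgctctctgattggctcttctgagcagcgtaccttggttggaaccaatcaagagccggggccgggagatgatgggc

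These stretches of 150 bases differed in composition. Syn2 held 12 CpG dinucleotides and 2 GC boxes, Cplx1 held 11 and 1, and Sv2a 5 and 1. Rimbp2 held 4 CpG dinucleotides, Syt1 held 5, and neither held a GC box. G and C made 58.0% of the letters before Syt1, the 1 gene shown that fell, and 64.0% to 71.3% before the 4 shown that rose. Syt13, which also fell, had no window, and no share over other promoters is given, so no difference by direction is drawn. In the whole windows of 300 bases a GC box lay in 4 of these 5 genes, Cplx1, Sv2a, Syn2 and also Syt1. It lay in 35 of the 48 members with a window, beside 35.6% of all 32817 windows. The E-box CACGTG was in 0 of the 5 and in 7 of the 48, beside 7.15% of all windows. A member was counted if any of its windows held the motif, and each of the 5 genes by 1 chosen window. The shares over all windows are per window, so the counts of members are not comparable with them. A match to so short a motif is a description of the letters.

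Among the synaptotagmins, 2 of 14 tested genes fell and none was called higher, although 11 of the 14 had positive fold changes. Syt13 (chromosome 2, 92915098 to 92956058), an unusual synaptotagmin that lacks the calcium-binding residues, had 314 control and 24 deleted counts in line A, and 136 and 20 in line B. Both deleted libraries were thus far below both controls, and the controls themselves differed. Syt13 fell by 3.33 on the log2 scale (SE 0.35, edgeR adjusted p = 0.023), by 3.85 in line A and 2.64 in line B. Left out in turn without a term for line, control A gave −2.57 and control B −3.97.

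Syt1 (chromosome 10, 108497650 to 109010982) had 5063 control and 2056 deleted counts in line A, and 2453 and 829 in line B. Line A was above line B in either group, so deleted A lay close to control B, and the groups did not overlap. The log2 fold change of Syt1 was −1.47 (SE 0.07, edgeR adjusted p = 0.0194), and −1.47 again in each line alone. Leaving out a library without a term for line moved that value to −0.73 (control A), −1.97 (control B), −2.23 (deleted A) or −1.0 (deleted B).

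The other synaptotagmins mostly had higher counts in deleted cells without passing the threshold. Syt9, the third fast calcium sensor, had 111 control and 406 deleted counts in line A, and 107 and 186 in line B (1.3, SE 0.25, edgeR adjusted p = 0.0552). Syt7, a slow calcium sensor of high affinity, had 563 control and 1553 deleted counts in line A, and 1256 and 1742 in line B (0.92, SE 0.18, edgeR adjusted p = 0.0584). In both genes each deleted library was above both controls. Syt11 (chromosome 3, 88744700 to 88775164) had 14080 control and 28056 deleted counts in line A, and 20431 and 23764 in line B (0.57, SE 0.14, edgeR adjusted p = 0.0756). Line A gave 0.82 and line B 0.31. DESeq2 with the same block called Syt9, Syt7 and Syt11 higher as well. Syt4 was at −0.24 (SE 0.30, edgeR adjusted p = 0.63), with opposite signs in the lines.

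Lower in level, Syt16 had 71 control and 196 deleted counts in line A, and 81 and 128 in line B (1.02, edgeR adjusted p = 0.0697). Syt3 had 45 control and 100 deleted in line A, and 36 and 56 in line B (0.86, edgeR adjusted p = 0.0999). The fold changes of Syt14, Syt17, Syt12 and Syt6 were 0.71, 0.43, 0.17 and 0.10. Syt12 shares 950 exon bases with A930001C03Rik on the opposite strand. Syt12 had 186 control and 247 deleted counts in line A, and 166 and 166 in line B. A930001C03Rik had 205 and 252 in line A, and 168 and 153 in line B. Since strand use in counting is not given, their reads cannot be told apart. Syt10 had 4 control and 19 deleted counts in line A, and 34 and 44 in line B, and overlapped between groups. Syt15 had 11 control and 25 deleted in line A, and 2 and 3 in line B, low in line B. Syt5 was not tested, with 7 control and 15 deleted counts in line A, and 4 and 9 in line B.

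**Figure D3:**
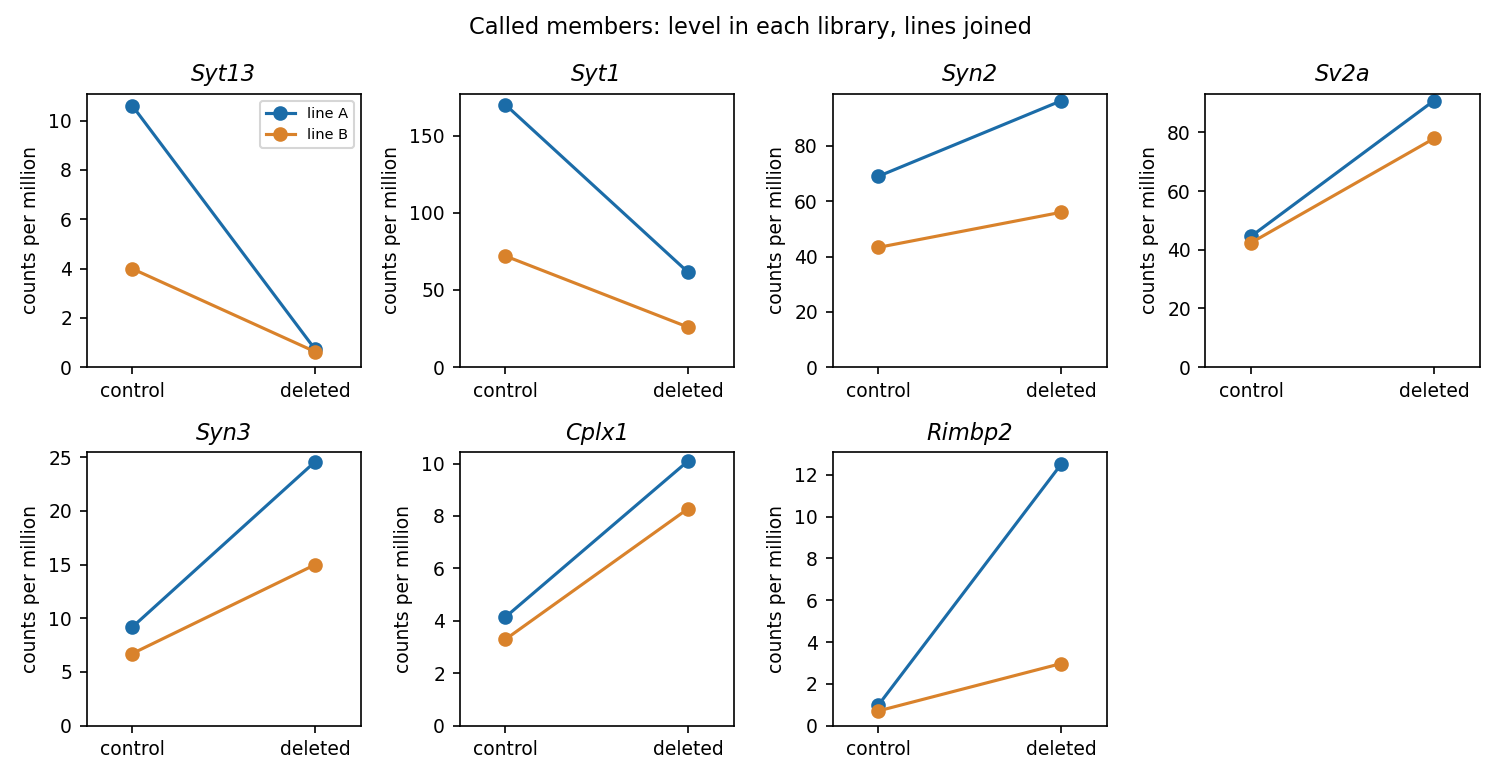
CPM of the 7 called members in each library, with the control and deleted library of a line joined by a line (blue for A, orange for B). In all 7 genes both lines move the same way, and for Rimbp2 deleted A reaches 12.5 CPM and deleted B 2.97. For Syt1 the controls stand apart, at 170 CPM (line A) and 72.0 CPM (line B) in controls.

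Among genes of the active zone, the release site on the presynaptic membrane, Rimbp2 rose and the 4 RIM genes were not called. Rimbp2 (chromosome 5, 128760401 to 128953362) had 29 and 24 counts in controls and 420 in deleted A and 95 in deleted B. Both deleted libraries were above both controls, deleted A by far more. Rimbp2 rose by 2.97 (SE 0.42, edgeR adjusted p = 0.0359), by 3.66 in line A and 2.05 in line B. Without deleted A, in a fit that has no term for line, its value was 1.82, and without deleted B 3.88. Its level in controls was low for the set, at 0.123 and 0.0887 RPKM.

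Rims4 had 357 control and 744 deleted counts in line A, and 332 and 448 in line B (0.71, SE 0.14, edgeR adjusted p = 0.0588), and Rims3 had 386 control and 718 deleted in line A, and 635 and 794 in line B (0.56, SE 0.13, edgeR adjusted p = 0.0671). These are the short RIM proteins, which lack most of the domains of Rims1 and Rims2, and DESeq2 with the same block called Rims4 higher. Each deleted library was above both controls for both genes. The long RIM genes had fold changes close to 0, with Rims1 at 54 control and 59 deleted counts in line A, and 81 and 92 in line B (0.13) and Rims2 at 451 control and 501 deleted in line A, and 608 and 602 in line B (0.03).

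Cplx1, the complexin of most forebrain inhibitory and hindbrain synapses, rose, and Cplx2 was not called. Cplx1 (chromosome 5, 108518554 to 108550024) had 123 control and 337 deleted counts in line A, and 112 and 265 in line B. Cplx1 rose by 1.31 over both lines, with 1.28 in A and 1.33 in B (SE 0.16, edgeR adjusted p = 0.0307). Cplx2 had 6550 control and 8004 deleted counts in line A, and 5522 and 7120 in line B (0.29, SE 0.10, edgeR adjusted p = 0.14), so the groups were apart but the difference did not pass the threshold.

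Sv2a (chromosome 3, 96181151 to 96195521) encodes the vesicle glycoprotein to which the antiepileptic drug levetiracetam binds. It had 1326 control and 3042 deleted counts in line A, and 1447 and 2492 in line B, so the controls lay close together and both deleted libraries well above them. Sv2a rose by 0.95 (SE 0.07, edgeR adjusted p = 0.0194), by 1.03 in line A and 0.88 in line B. Its relative Sv2c had 171 control and 186 deleted counts in line A, and 411 and 458 in line B (0.11, edgeR adjusted p = 0.674), with the lines farther apart than the groups. Sv2b was not tested, with 9 control and 20 deleted counts in line A, and 7 and 9 in line B.

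The synapsins, which coat vesicles and hold them in a reserve pool, each enclose a Timp gene on the opposite strand, a gene for an inhibitor of metalloproteinases. Syn3 (chromosome 10, 86055125 to 86498896) had 273 control and 825 deleted counts in line A, and 229 and 479 in line B. Syn3 rose by 1.29 (SE 0.14, edgeR adjusted p = 0.023). Timp3, which lies inside it, had 711 control and 2158 deleted counts in line A, and 583 and 1201 in line B, a rise of 1.28 (SE 0.11, edgeR adjusted p = 0.0195). The count of Syn3 was 0.384 and 0.393 of that of Timp3 in controls A and B and 0.382 and 0.399 in deleted A and B, a nearly fixed ratio while both counts rose. In GENCODE M21 the exons of these genes share 1733 bases. Whether the counting used strand is not given in the sources used here, so the reads of Syn3 cannot be told apart from those of Timp3, and its rise is uncertain.

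Syn2 (chromosome 6, 115134902 to 115282626) had 2050 control and 3224 deleted counts in line A, and 1477 and 1792 in line B. The groups overlapped, as deleted B was below control A, but in each line the deleted library was the higher. Syn2 rose by 0.43 (SE 0.07, edgeR adjusted p = 0.044), by 0.48 in line A and 0.37 in line B. Without a term for line, the value was −0.01 without deleted A, 0.14 without control B, 0.81 without control A and 0.76 without deleted B. Its nested gene Timp4 shares 90 exon bases with it and rose by 1.38 (SE 0.13, edgeR adjusted p = 0.0225). The ratio of Syn2 to Timp4 counts was not fixed, at 2.48 (control) and 1.11 (deleted) in line A, and 1.12 and 0.660 in line B. Since strand use in counting is not given, Timp4 reads within the Syn2 count cannot be told apart. The size of the Syn2 rise is therefore uncertain as well.

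Syn1 is the 1 member on the X chromosome (20860511 to 20921004). It had 516 control and 725 deleted counts in line A, and 457 and 475 in line B (0.23, SE 0.12, edgeR adjusted p = 0.243), with deleted B inside the range of the controls. The nested Timp1 shares no exon base with it and had a fold change of 0.02 (edgeR adjusted p = 0.935).

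**Figure D4:**
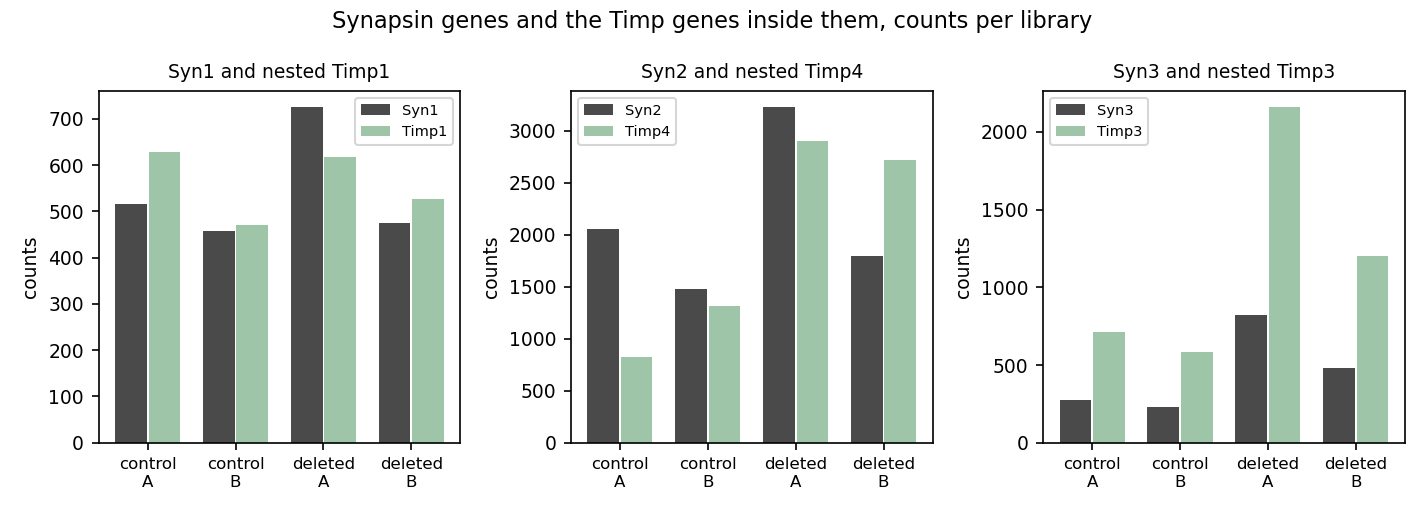
Counts per library of each synapsin gene (dark bars) and of the Timp gene inside it (green bars). Syn3 and Timp3 keep the same proportion in all 4 libraries, between 0.382 and 0.399, whereas Syn2 and Timp4 do not, between 0.660 and 2.48.

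None of the 25 SNARE genes tested was called, in a fit where 5.6% of all genes were, a share that gives few calls among so few genes. Among the 15 SNAREs of the plasma membrane and of regulated exocytosis, the median fold change was 0.03, from −0.71 to 0.52. Unadjusted edgeR p was under 0.05 for 2 higher and 3 lower ones, beside 17.2% higher and 13.6% lower over all genes tested. The members with the highest counts were Vamp3, with 5651 control and 6728 deleted counts in line A, and 8033 and 7931 in line B (0.08, SE 0.06, edgeR adjusted p = 0.47), and Stx4a, with 2645 control and 2930 deleted in line A, and 2954 and 2935 in line B (0.03, SE 0.07, edgeR adjusted p = 0.808). In both genes the groups overlapped.

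SNAREs of the neuronal complex had small positive values. Vamp2 had 1643 control and 2583 deleted counts in line A, and 2190 and 2387 in line B (0.35, SE 0.09, edgeR adjusted p = 0.082), with each deleted library above both controls. Snap25 had 30 control and 37 deleted counts in line A, and 86 and 97 in line B (0.21), and Stx1a 191 control and 244 deleted in line A, and 260 and 293 in line B (0.22).

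Of the plasma membrane SNAREs, Stx11, Stx2 and Snap23 had the lowest fold changes. Their mean levels in controls were 2.28, 8.58 and 17.6 RPKM. Stx11, best known from cytotoxic lymphocytes, had 294 control and 192 deleted counts in line A, and 317 and 193 in line B (−0.71, SE 0.16, edgeR adjusted p = 0.0664). Its pairs of libraries were tight and apart, and edgeR without the filter on low counts called Stx11 lower. Stx2, known from epithelia, had 1093 control and 865 deleted counts in line A, and 1428 and 1121 in line B (−0.38, edgeR adjusted p = 0.0836), and Snap23, the partner of both in many cells, 2224 control and 1838 deleted in line A, and 2591 and 2180 in line B (−0.30, edgeR adjusted p = 0.111). The other 6 genes of this class, Stx3, Stx19, Snap29, Snap47, Vamp1 and Vamp8, had fold changes from −0.18 (Stx3) to 0.52 (Vamp8).

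The 10 SNAREs of the Golgi, endoplasmic reticulum and endosomes had fold changes from −0.23 to 0.28 and a median of 0.06. Stx12 had 6959 control and 8148 deleted counts in line A, and 8608 and 8011 in line B (0.02, SE 0.07, edgeR adjusted p = 0.857), and Stx7, of late endosomes, 3163 control and 4067 deleted in line A, and 4098 and 3888 in line B (0.10, SE 0.08, edgeR adjusted p = 0.408). At the ends of the range were Stx5a, the syntaxin of the early Golgi, at −0.23 (edgeR adjusted p = 0.0948), and Vamp4, of the trans-Golgi network, at 0.28 (edgeR adjusted p = 0.0866). Stx6, Stx8, Stx16, Stx17, Stx18 and Vamp5 lay between them.

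None of the 5 syntaxin-binding genes was called. Stxbp2, the Munc18 of blood cells and epithelia, had 40 control and 87 deleted counts in line A, and 13 and 27 in line B (1.02, SE 0.28, edgeR adjusted p = 0.0946), higher in the deleted library of each line but overlapping between groups. Stxbp6 (amisyn) had 628 control and 711 deleted counts in line A, and 2322 and 1864 in line B (−0.12, SE 0.09, edgeR adjusted p = 0.433). Stxbp4 and Stxbp5 (tomosyn) were at −0.09 and 0.05. Snap91, the clathrin adaptor, had 1433 control and 940 deleted counts in line A, and 1444 and 1081 in line B (−0.55, SE 0.13, edgeR adjusted p = 0.0726), and DESeq2 with the same block called it lower.

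The lines themselves differed at several members. In control cells 4 of the tested members were at least 2-fold higher in line B and 5 at least 2-fold higher in line A, 15.8% in all, beside 7.59% of all genes tested. Stxbp6 was 3.22-fold higher in control B, Syt10 had 34 counts there against 4 in control A, and Snap25 and Sv2c were 2.50-fold and 2.10-fold higher there. Syt1, Syt13 and Syt4 in control B were at 0.422, 0.378 and 0.369 of their level in control A. With 1 control library per line, these differences have no replicate.

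Other genes of the release pathway, from lists set by function, were tested in the same fit. Of 85 tested genes in 8 lists, 4 rose and 2 fell, 7.06%, beside 5.6% of all genes, and their median fold change was 0.05. Among 13 proteins of the vesicle membrane, 2 rose: synaptoporin (Synpr), with 192 control and 1322 deleted counts in line A, and 245 and 736 in line B (2.14, SE 0.24, edgeR adjusted p = 0.0256), and the SV2-related gene Svop, with 1143 control and 3233 deleted in line A, and 582 and 908 in line B (1.05, SE 0.16, edgeR adjusted p = 0.0384). Svop in deleted B was below control A, and Synpr was apart in both lines.

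Of 23 tested genes for priming and the active zone, 1 rose and 1 fell. Cadps2, a priming factor of dense-core vesicles, had 23 control and 85 deleted counts in line A, and 20 and 66 in line B (1.76, SE 0.27, edgeR adjusted p = 0.0407). Erc1, an active zone scaffold of many cell types, had 2576 control and 2216 deleted in line A, and 3004 and 1937 in line B and fell by 0.47 (SE 0.07, edgeR adjusted p = 0.0417). Of 11 genes of vesicle endocytosis, the endophilin gene Sh3gl2 rose by 1.15 (SE 0.12, edgeR adjusted p = 0.0226) and the amphiphysin-like gene Bin1 fell by 0.58 (SE 0.07, edgeR adjusted p = 0.0251).

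None was called among 5 genes of SNARE recycling (Napa, which encodes alpha-SNAP, at −0.17), 12 further SNAREs (Ykt6 at −0.06), 5 further Sec1/Munc18 genes (Vps33a at −0.24), 10 exocyst genes (Exoc4 at 0.14) and 6 tested synaptotagmin-like and extended synaptotagmin genes (Esyt2 at −0.22). These are the members of each list with the most counts. Fold changes of the further SNAREs ran from −0.19 to 0.29.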

How the data were processed

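Per the submitters' processing notes, reads were processed with bcl2fastq, TopHat2 2.0.12 and edgeR on mm10. The authors deposited raw counts per gene. The columns of all aligned reads were used, and 8 columns of reads split by parental genome were not. No label ties a column of either kind to 1 sample. Which tool counted reads, and whether by strand, is not given in the sources used here. Column names give the group, and a number that marks the line but is in no label. The protocol says that lines were divided, which pairs the libraries, and deviations of same-numbered libraries from their group means correlated at r = 0.719 across 14860 genes, which are not independent replicates. The libraries within each group were not copies of each other (chi-square over its degrees of freedom 43.93 for controls and 71.09 for deleted cells).

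Total counts were tested with edgeR 4.0.16 in R 4.3.3 (quasi-likelihood, TMM, filterByExpr, Benjamini-Hochberg over all genes, line as a block). DESeq2 1.42.0 was an alternative. Folds within a line add 0.5 to each count. The tests were also run on simulated counts with the same effect in both lines, which does not cover effects that differ between lines. The outcome is not given here. Called members (mean log2 CPM of at least 0), the X-linked member and the 2 most abundant members of classes without a call were named by rule, from each other list up to 4 called genes or the most abundant, and further members were named after their values were seen. Results of 2 members are not reported here. Members and lists were chosen with earlier results of these data known.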

Additional observations from a re-analysis of the deposited data

Results flagged for a closer look

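For 2 members the difference between the deleted and the control library had opposite signs in the lines, beyond counting error in each. Libraries of 1 group also differed beyond counting error, so this does not separate the lines from the spread between cultures. Syt4, a synaptotagmin of dense-core vesicles, had 430 control and 587 deleted counts in line A but 182 and 91 in line B, giving log2 fold changes of 0.28 and −0.90. Snap29, a SNARE of autophagosome and endosome fusion, had 1084 control and 1416 deleted counts in line A but 1642 and 1373 in line B, giving 0.21 and −0.17. It shares 60 exon bases with Pi4ka on the opposite strand. With 1 library of each kind per line the difference between lines was not tested.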

How the results depend on the processing

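The counts of called members depend on the term for line and on the tool. Without the replicate block, 0 members were higher and 0 lower, against 5 and 2 with it, and 0 genes of the other release lists were higher and 0 lower, against 4 and 2. That fit called 0 of all 14860 genes tested, against 832 with the block. DESeq2 with the block called 10 members higher and 3 lower. Without a filter on low counts edgeR called 12 higher and 5 lower of 61 members tested. It also called 8 genes of the other lists higher, and the number lower is not given here. Each of these 2 settings kept all 7 calls, and without the filter 1802 of 18715 genes were called in all, against 832. DESeq2 size factors and a mean count of at least 10 each kept the same 7. Leaving out each library in turn could be fitted only without the block, since 3 libraries with it leave no residual degrees of freedom. Each such fit leaves a group without a replicate, so only its fold changes are given. There Syn2 ranged from −0.01 without deleted A to 0.81 without control A. The planned test of allele ratios and its alternatives were not run. A line alone gives folds but no count of calls. The 6 members with no count above 20 in any library did not pass the edgeR filter, and there are 2 libraries per group.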

Other observations

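Markers of neuroendocrine cells, which release from dense-core vesicles, held no called gene among 3 tested. The secretogranin gene Scg2 had 521 control and 245 deleted counts in line A, and 75 and 76 in line B (log2 fold change −0.69, edgeR adjusted p = 0.254). The chromogranin gene Chga had 29 control and 122 deleted counts in line A, and 52 and 53 in line B (1.00, edgeR adjusted p = 0.226). Among neuron markers the fold changes ran from −0.58 to 1.12, with Stmn2 at the lower end (126 control and 71 deleted counts in line A, and 26 in each library of line B) and Dcx at the upper (37 control and 129 deleted in line A, and 168 and 266 in line B, edgeR adjusted p = 0.0756). Elavl3, the 1 neuron marker called, had 513 control and 961 deleted counts in line A, and 583 and 805 in line B (0.64, SE 0.11, edgeR adjusted p = 0.0443).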
